A study of Mus musculus with 6 samples.

Results

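Genes for neurotransmitter receptors and for the Shank scaffold proteins were followed in RNA sequencing of mouse jejunal intestinal epithelial cells (IEC), in control mice and in mice whose IEC lacked Hdac1 and Hdac2. Members were chosen by symbol, with earlier results of these data known. They are receptors and receptor subunits for acetylcholine, GABA, glutamate, serotonin, noradrenaline and adrenaline, dopamine and glycine, together with Shank1, Shank2 and Shank3. Of 104 mouse genes in the annotation whose symbols fit these names, 44 have a row among the 19616 genes used here, and these 44 are described below. No glycine receptor subunit was among them. The control group was 3 wild-type mice (C1, C3 and C3-3). The Hdac1/2-deleted group was 3 villin-Cre Hdac1-/-; Hdac2-/- mice (H1, H5 and H9), in which the villin promoter drives Cre in IEC. All 6 mice were 3 months old, the study's methods give a mixed C57BL/6J, 129SV and CD1 background, and each mouse gave 1 library of poly(A) RNA from cells enriched by EDTA.

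Acetylcholine acts through muscarinic receptors, which couple to G proteins, and through nicotinic receptors, which are ion channels made of several subunits. Glutamate opens AMPA, kainate and NMDA channels and also acts on metabotropic receptors, while GABA opens GABA-A channels and acts on GABA-B receptors. Shank proteins are large scaffolds best known from the postsynaptic density of excitatory synapses, where they connect glutamate receptors, through Dlgap and Homer proteins, to the actin cytoskeleton. In the gut, transmitters are released by enteric neurons and by enteroendocrine cells, and the epithelium carries muscarinic receptors that regulate secretion.

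Among the 44 genes, 10 rose, 8 fell, 10 were tested without a call and 16 had too few counts to be tested. Among those that rose were Chrm4, Shank3, Grik1, Chrnb1, Grik4, Htr6, Shank1, Grik3 and Shank2. The genes that fell were Chrm1, Grin2d, Chrm3, Chrnb2, Gabrd, Gabre, Grik5 and Chrna2. Chrm4 and Shank3, the genes of largest fold change apart from Grik1, together went from 1.13% to 1.19% of the summed expression of the 44 genes in control libraries to 41.9% to 43.9% in Hdac1/2-deleted libraries. That sum was 57.3, 66.9 and 58.6 CPM in C1, C3 and C3-3, and 119, 164 and 141 CPM in H1, H5 and H9. CPM is the number of counts per 1000000 counts of a library, after scaling by edgeR's TMM factors, and is given as mean ± SD of 3 mice.

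A gene was called when its adjusted p was at most 0.05 in edgeR's quasi-likelihood test (Benjamini-Hochberg over all 15618 genes tested) and its change was at least 2-fold. Increased genes made up 35.7% of the 28 tested members, where 12.4% of all genes tested were increased. Decreased genes made up 28.6%, against 12.7% of all genes tested. The control and Hdac1/2-deleted libraries did not overlap for 20 of the 28 tested members, or 71.4%, against 53.2% of all genes tested. The median log2 fold change was -0.26 over the tested members and -0.0081 over all tested genes. A gene that passed the filter on low counts only through its high group had to differ, so these shares describe the tested genes and not all 44. Most members were scarce: 12 had a mean of at least 1 CPM over the 6 libraries, and 19 were under 0.5 CPM in every library.

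**Figure D1:**
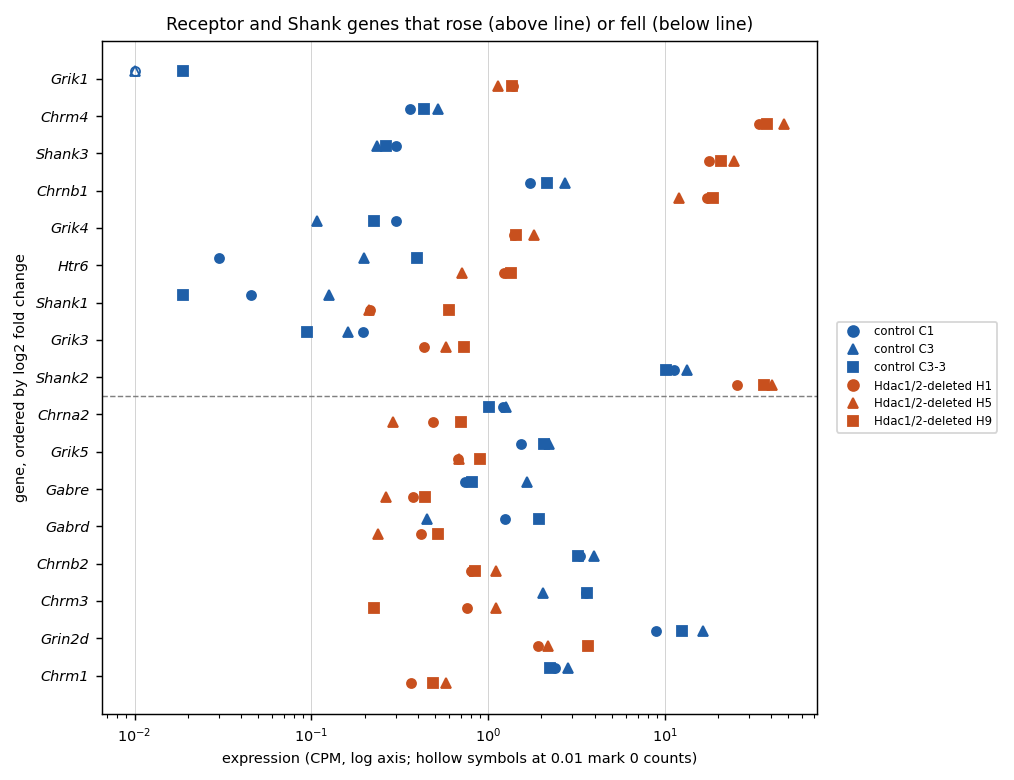
Expression in CPM (log axis) of 17 called genes in each of the 6 libraries, ordered by log2 fold change, with control libraries in blue and Hdac1/2-deleted libraries in orange. Chrm4 and Shank3 are under 1 CPM in every control library and at 17.8 CPM or more in every Hdac1/2-deleted library, and the groups overlap for Gabrd alone.

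Total counts ranged from 36111035 in H5 to 65902344 in C1. At these depths 3 counts correspond to 0.0405 to 0.0790 CPM, which covers counting error only. Hdac1 had 2592, 1916 and 2596 counts in C1, C3 and C3-3, and 294, 96 and 296 in H1, H5 and H9. It fell in every deleted mouse (log2 fold change -3.43, standard error 0.26, adjusted p = 2.91e-05). Hdac2 had 1313 to 2176 counts in control and 964 to 1971 in Hdac1/2-deleted libraries, and these ranges overlapped (log2 fold change -0.18, standard error 0.17, adjusted p = 0.438). Whether the counted exons of Hdac2 lie in the deleted part is not given in the sources used here. Epithelial markers summed to 12180 to 13957 CPM in control and 9207 to 11372 CPM in Hdac1/2-deleted libraries. The libraries differed in other cells: 5 smooth muscle markers summed to 61.8 CPM in C1 and 49.2 in C3, but 2.45 in C3-3 and 0.211 to 0.342 in the Hdac1/2-deleted libraries. C3 was also the sole library with many Y chromosome transcripts, 3082 counts against at most 13 in any other. In bulk RNA of this kind, fewer cells of a type and less RNA per cell cannot be told apart.

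The regions just upstream of the RefSeq start of 5 called genes are shown because they belong to the 3 increased genes of highest CPM that have a sequence here, and to the 2 decreased genes of highest CPM in control IEC. Each line gives the 250 bases before the transcription start in RefSeq (GRCm38.p6), 5′ to 3′ on the strand of the gene. Capitals mark the letters GGGCGG, or CCGCCC on the other strand, known as the GC box, and overlapping copies run together.
Chrm4: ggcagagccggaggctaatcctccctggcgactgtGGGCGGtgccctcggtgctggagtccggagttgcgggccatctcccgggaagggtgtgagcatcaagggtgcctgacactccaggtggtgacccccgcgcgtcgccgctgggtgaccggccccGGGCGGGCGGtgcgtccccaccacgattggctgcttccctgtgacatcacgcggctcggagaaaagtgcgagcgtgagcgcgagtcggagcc
Shank3: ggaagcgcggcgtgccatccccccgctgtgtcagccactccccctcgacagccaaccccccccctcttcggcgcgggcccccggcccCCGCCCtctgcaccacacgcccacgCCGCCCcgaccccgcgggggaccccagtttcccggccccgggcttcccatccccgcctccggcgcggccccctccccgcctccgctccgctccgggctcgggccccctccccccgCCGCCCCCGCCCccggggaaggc
Chrnb1: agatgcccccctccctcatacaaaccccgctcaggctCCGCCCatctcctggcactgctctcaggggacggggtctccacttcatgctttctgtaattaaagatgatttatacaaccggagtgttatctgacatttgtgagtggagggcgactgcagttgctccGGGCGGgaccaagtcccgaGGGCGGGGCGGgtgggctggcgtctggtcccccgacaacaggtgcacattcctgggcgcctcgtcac
Chrnb2: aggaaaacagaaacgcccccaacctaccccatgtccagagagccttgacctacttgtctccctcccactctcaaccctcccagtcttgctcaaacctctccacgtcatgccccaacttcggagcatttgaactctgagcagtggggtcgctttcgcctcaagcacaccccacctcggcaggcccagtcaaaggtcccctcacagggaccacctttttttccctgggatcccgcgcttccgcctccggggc
Grin2d: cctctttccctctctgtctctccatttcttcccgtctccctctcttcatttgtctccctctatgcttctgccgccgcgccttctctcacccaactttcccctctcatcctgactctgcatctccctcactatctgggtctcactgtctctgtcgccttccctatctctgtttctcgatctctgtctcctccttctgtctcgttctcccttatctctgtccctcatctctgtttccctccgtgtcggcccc
The Chrm4 sequence lies at chr2:91921939-91922188 on the plus strand, and the Shank3 sequence at chr15:89499358-89499607 on the plus strand. That of Chrnb1 lies at chr11:69795938-69796187, that of Chrnb2 at chr3:89764633-89764882 and that of Grin2d at chr7:45866682-45866931, all 3 on the minus strand. The RefSeq start of Grin2d lies 11697 bases from its GENCODE start, inside the gene model of the annotation, and that of Chrm4 lies 5060 bases from its GENCODE start, outside the model. The letters of a GC box occurred 3 times upstream of Chrm4, 4 times upstream of Shank3 and 4 times upstream of Chrnb1, and not upstream of Chrnb2 or Grin2d. CpG dinucleotides numbered 26, 31 and 14 in the first 3 sequences, and 10 and 9 in the last 2. The base composition differed too, with 70.0% G and C upstream of Chrm4, 82.4% for Shank3 and 54.4% for Grin2d.

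Over all called members with a sequence, 6 of 7 windows of increased genes held a GC box, against 2 of 5 windows of decreased genes. The share was 32.7% of all 32851 windows of this length and 54.9% of the windows of tested genes. The windows of increased members held a median of 26 CpG dinucleotides (range 9 to 42), those of decreased members 10 (range 8 to 21), and those of all tested genes 14. The decreased genes Grik5 and Gabre held 2 and 3 GC boxes, and 1 of the 2 windows of Htr6, an increased gene, held none. The letters TATAAA, searched on both strands, occurred in 12.4% of all windows and, among called members, upstream of Chrnb1 alone. There they lie on the strand opposite the gene, read as TTTATA in the sequence above. The left and right parts of the element bound by REST, a repressor of neuronal genes, were searched as TTCAGCACC and GGACAGCGC on both strands. They occurred in 0.301% and 0.304% of all windows and in no window of a called member. The left part occurred upstream of Grm2, an untested member. At shares this low, so few windows of called members would most likely hold none, so the search cannot decide whether REST sites mark these genes. A match of letters describes the sequence and does not show that a factor binds it.

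Among muscarinic receptors, Chrm4 rose while Chrm1 and Chrm3 fell. Chrm4 (ENSMUSG00000040495, chr2:91927249-91928688) encodes M4, which inhibits adenylyl cyclase through Gi proteins. It had 24, 29 and 23 counts in C1, C3 and C3-3, and 2535, 1795 and 2338 in H1, H5 and H9. The lowest Hdac1/2-deleted library, at 34.2 CPM, lay far above the highest control library, at 0.522 CPM. Expression went from 0.439 ± 0.0801 CPM to 39.8 ± 6.71 CPM (log2 fold change 6.50, standard error 0.24, adjusted p = 1.55e-06). The GENCODE model of Chrm4 holds 1440 exonic bases and starts 5060 bases downstream of the RefSeq start used for the sequence above.

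Chrm1 and Chrm3 encode M1 and M3, which couple to Gq and phospholipase C, and M3 is the main muscarinic receptor of secretory epithelia and visceral smooth muscle. Chrm1 had 158, 158 and 119 counts in C1, C3 and C3-3, and 27, 22 and 30 in H1, H5 and H9. Its expression fell from 2.49 ± 0.316 to 0.477 ± 0.108 CPM (log2 fold change -2.39, standard error 0.33, adjusted p = 0.000599). Chrm3 had 237, 114 and 193 counts in control mice, and 56, 42 and 14 in Hdac1/2-deleted mice. It fell from 3.09 ± 0.897 to 0.696 ± 0.442 CPM (log2 fold change -2.17, standard error 0.53, adjusted p = 0.0106), and H9 was the lowest library. For both genes the highest Hdac1/2-deleted library lay under the lowest control library.

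Chrm2 encodes M2, the most abundant muscarinic receptor of intestinal smooth muscle. It had 45, 13 and 0 counts in C1, C3 and C3-3 and 2, 0 and 0 in H1, H5 and H9, too few for the test. Over each group that is 58 against 2 counts, a ratio of 28.8 with a 95% counting interval of 7.62 to 243. Its counts were highest in the libraries with most smooth muscle RNA, C1 and C3, and 0 in C3-3. Chrm3 did not follow that order, with 193 counts in C3-3, where the smooth muscle sum was 2.45 CPM. A fit with C3-3 as the sole control library was added after the marker sums were seen. There the log2 fold change was -2.39 for Chrm3 and -2.23 for Chrm1. The part of smooth muscle and of other cells in the Chrm1, Chrm2 and Chrm3 counts was not tested.

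**Figure D2:**
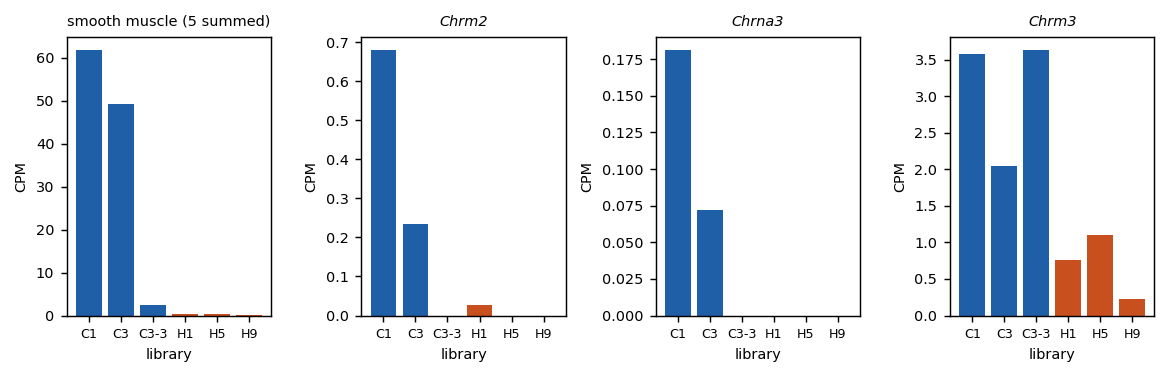
Expression in CPM, in each library, of 5 smooth muscle markers summed (Myh11, Actg2, Des, Acta2 and Cnn1) and of Chrm2, Chrna3 and Chrm3, with control libraries in blue and Hdac1/2-deleted libraries in orange. Chrm2 and Chrna3 are at 0 in C3-3, where the markers sum to 2.45 CPM, while Chrm3 is at 3.63 CPM there.

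Nicotinic subunits also moved in both directions. Chrnb1 (ENSMUSG00000041189, chr11:69784036-69795943), the beta subunit of the nicotinic receptor of skeletal muscle, had 115, 151 and 114 counts in C1, C3 and C3-3, and 1280, 457 and 1158 in H1, H5 and H9. H5, the library of fewest reads, had the lowest level of the 3 deleted mice, 12.03 CPM, which was still above the highest control level of 2.72 CPM. Expression rose from 2.20 ± 0.494 to 16.0 ± 3.56 CPM (log2 fold change 2.87, standard error 0.26, adjusted p = 7.32e-05). Chrne, the adult epsilon subunit of the same receptor, had at most 8 counts in any library.

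Chrnb2, the beta subunit most used by neuronal receptors of the brain, fell from 3.50 ± 0.400 to 0.916 ± 0.166 CPM (log2 fold change -1.94, standard error 0.29, adjusted p = 0.00088). Its counts were 219, 220 and 172 in control mice, and 59, 42 and 52 in Hdac1/2-deleted mice. The exons of Chrnb2 share 1365 bases with Adar on the opposite strand, and whether strand was used in counting is not given in the sources used here. Adar was far more abundant and was also lower in Hdac1/2-deleted mice, at 65.7 ± 4.01 against 38.7 ± 1.94 CPM (log2 fold change -0.76). The part of Adar reads in the Chrnb2 counts was not tested. Chrna2, an alpha subunit, fell from 1.16 ± 0.129 to 0.492 ± 0.205 CPM (log2 fold change -1.22, standard error 0.40, adjusted p = 0.0363), with 80, 70 and 54 counts in control and 36, 11 and 43 in Hdac1/2-deleted mice. The call of Chrna2 was lost without any 1 of C1, C3, C3-3, H1 and H5, in 5 of the 6 fits that left out 1 mouse, with an adjusted p of up to 0.0961.

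Chrna10 and Chrnb4 were tested and not called, with log2 fold changes of -0.84 and -0.98 and adjusted p of 0.515 and 0.138. Chrna3, the alpha subunit of autonomic ganglia, had 12, 4 and 0 counts in C1, C3 and C3-3 and 0 in every Hdac1/2-deleted library. Against a floor of 3 counts over the group that is at least 5.29-fold lower, and its control counts stood in the libraries with smooth muscle RNA. Chrnb3 had 0 counts in every control library and 0, 7 and 4 in H1, H5 and H9, so its groups overlapped. Against the same floor its summed counts were at least 3.69-fold higher. Both bounds cover counting error only, not the spread between mice. With no filter on low counts edgeR called neither Chrna3 (adjusted p = 0.066) nor Chrnb3 (adjusted p = 0.0931). DESeq2 called neither of them (adjusted p = 0.127 and 0.128). The part of other cells in the Chrna3 counts was not tested.

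All 4 kainate receptor subunits with a row were called, where 12.4% of all genes tested were increased and 12.7% decreased. Grik1, Grik3 and Grik4 rose and Grik5 fell. Grik1, Grik3 and Grik4 passed the filter on low counts through their Hdac1/2-deleted libraries, so they had to be high there to be tested. Grik1 (ENSMUSG00000022935, chr16:87895900-88290265), the GluK1 subunit, had 0, 0 and 1 counts in C1, C3 and C3-3 and 103, 43 and 84 in H1, H5 and H9. The ratio of the summed counts, 230 against 1, was 232 with a 95% counting interval of 41.2 to 9193, and the adjusted p was 9.35e-05. The fitted log2 fold change of 7.36 (standard error 0.71) depends on the prior count, since 2 control libraries were at 0. In CPM the gene was at 1.30 ± 0.142 in Hdac1/2-deleted mice, so it went from the limit of detection to a level that remained low.

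Grik4 encodes GluK4, a subunit that forms channels only together with GluK1 to GluK3. It rose from 0.212 ± 0.0977 to 1.56 ± 0.227 CPM (log2 fold change 2.85, standard error 0.44, adjusted p = 0.00105), with 20, 6 and 12 counts in control and 104, 69 and 89 in Hdac1/2-deleted mice. Grik3, the GluK3 subunit, rose from 0.151 ± 0.0520 to 0.581 ± 0.150 CPM (log2 fold change 1.92, standard error 0.46, adjusted p = 0.00974), from 13, 9 and 5 counts to 32, 22 and 45. Grik5 encodes GluK5, the other subunit that needs a GluK1 to GluK3 partner. It had 101, 122 and 110 counts in control mice and 50, 26 and 55 in Hdac1/2-deleted mice, and fell from 1.93 ± 0.357 to 0.751 ± 0.124 CPM (log2 fold change -1.36, standard error 0.32, adjusted p = 0.00918). In none of the 4 did the groups overlap, and groups did not overlap for 53.2% of all genes tested. For Grik1, Grik3 and Grik4 this follows in part from how they passed the filter.

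Grin2d encodes GluN2D, a modulatory subunit of the NMDA receptor, and was the NMDA subunit of highest level. Listed as ENSMUSG00000002771 (chr7:45831883-45878378), it had 589, 915 and 661 counts in C1, C3 and C3-3, and 141, 83 and 226 in H1, H5 and H9. It fell from 12.6 ± 3.79 to 2.59 ± 0.951 CPM (log2 fold change -2.28, standard error 0.33, adjusted p = 0.000769). Grin1, the subunit that every NMDA receptor contains, had 6 to 9 counts in control and 3 to 6 in Hdac1/2-deleted libraries and was not tested. Grin2a had at most 11 counts in any library. Grin2d was thus measured in libraries in which Grin1 was at most 0.162 CPM. The exons of Grin2d share 643 bases with the predicted gene Gm45441 on the opposite strand.

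The remaining glutamate receptors gave no call. Grm4, the metabotropic receptor mGlu4, had 64, 61 and 238 counts in C1, C3 and C3-3 and 111, 110 and 123 in H1, H5 and H9. The high value of C3-3 set its spread, with 2.18 ± 1.99 CPM in control and 2.13 ± 0.708 in Hdac1/2-deleted mice (log2 fold change -0.04, standard error 0.60, adjusted p = 0.967). Without C3-3 the log2 fold change was 1.05 (adjusted p = 0.0884). Gria3, Grid1 and Grm2 had at most 15 counts in any library and were not tested.

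GABA-A subunits were scarce. Gabre, the X-linked epsilon subunit, had 49, 92 and 43 counts in control and 28, 10 and 27 in Hdac1/2-deleted mice (log2 fold change -1.55, standard error 0.45, adjusted p = 0.0223). Gabrd, the delta subunit of extrasynaptic receptors, had 82, 25 and 103 counts in control and 31, 9 and 32 in Hdac1/2-deleted mice (log2 fold change -1.60, standard error 0.56, adjusted p = 0.0471).

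In C3, Gabrd was at 0.450 CPM, under the 0.520 CPM of H9, so its groups overlapped. The call of Gabrd was lost with any mouse but C3 left out, in 5 of 6 fits (adjusted p up to 0.182). That of Gabre was lost without C3, H1 or H5 (adjusted p up to 0.101). Gabrr2, a rho subunit, did not pass (log2 fold change -1.46, adjusted p = 0.0623), nor did Gabra2 (log2 fold change -0.37, adjusted p = 0.583). Gabrg3, a gamma subunit, had 1, 0 and 0 counts in control and 11, 4 and 5 in Hdac1/2-deleted mice, a ratio of 20.2 (95% counting interval 3.22 to 835). It did not pass the filter on low counts. When no filter was used, Gabrg3 was called increased (adjusted p = 0.0186).

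Gabbr1, the GABA-binding subunit of the GABA-B receptor, was at 2.58 ± 0.883 CPM in control and 1.67 ± 0.239 CPM in Hdac1/2-deleted mice (log2 fold change -0.62, standard error 0.33, adjusted p = 0.157). Its groups did not overlap, but the change did not pass the test. Gabbr2, the subunit that couples the receptor to G proteins, had 9 counts over the control group and 2 over the Hdac1/2-deleted group, a ratio of 4.47 with a 95% counting interval of 0.924 to 42.5. A difference in Gabbr2 was not detectable at this depth.

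**Figure D3:**
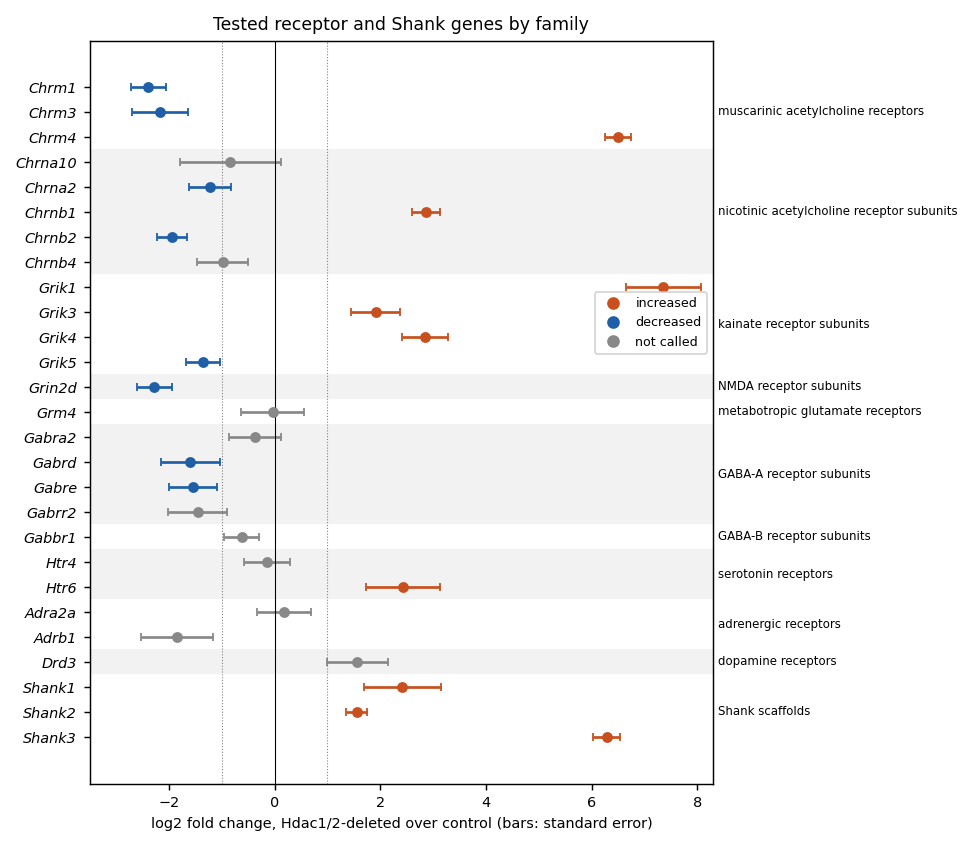
Log2 fold change of Hdac1/2-deleted over control, with its standard error as bars, for 27 tested genes grouped by family, and dotted lines at 2-fold. All 3 Shank genes lie to the right of the line at 2-fold, while muscarinic, nicotinic and kainate genes lie on both sides of 0.

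Of the receptors for monoamines, Htr6 was called, and the other 4 that were tested were not. Htr6, a serotonin receptor that couples to Gs, had 2, 11 and 21 counts in C1, C3 and C3-3 and 91, 27 and 83 in H1, H5 and H9. It rose from 0.208 ± 0.183 to 1.10 ± 0.339 CPM (log2 fold change 2.42, standard error 0.70, adjusted p = 0.0221). The call was lost without C3, H1 or H9, with an adjusted p of up to 0.0672. Htr4, the serotonin receptor with a known part in gut motility, was not called (log2 fold change -0.15, standard error 0.43, adjusted p = 0.806).

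Adra2a, the alpha 2A adrenergic receptor, had the highest mean level per length of exon in control IEC, but Grin2d was above it in C3 and C3-3, so that order rests on C1. It had 877, 480 and 403 counts in C1, C3 and C3-3, and 580, 781 and 314 in H1, H5 and H9. At 9.82 ± 3.01 CPM in control and 11.2 ± 8.25 CPM in Hdac1/2-deleted mice its groups overlapped (log2 fold change 0.18, standard error 0.51, adjusted p = 0.808). H5 alone held 20.6 CPM, and without that mouse the log2 fold change was -0.60 (adjusted p = 0.197). Adrb1 (log2 fold change -1.85, adjusted p = 0.0572) and Drd3 (log2 fold change 1.57, adjusted p = 0.0595) missed the threshold. Drd4, Adrb3 and Htr1d had at most 8 counts in any library.

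All 3 Shank genes rose, where 12.4% of all genes tested were increased. Shank3 (ENSMUSG00000022623, chr15:89499623-89560261) had 20, 13 and 14 counts in C1, C3 and C3-3, and 1322, 936 and 1283 in H1, H5 and H9. Its expression went from 0.266 ± 0.0340 CPM to 21.1 ± 3.41 CPM (log2 fold change 6.29, standard error 0.25, adjusted p = 1.94e-06). With each mouse left out in turn the log2 fold change of Shank3 ranged from 6.17 to 6.40, and that of Chrm4 from 6.37 to 6.65. The exons of Shank3 share 271 bases with the predicted gene Gm15609 on the opposite strand.

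Shank2 (ENSMUSG00000037541, chr7:144001928-144424494) had the highest level of the 3 Shank genes in control IEC, per length of exon too, with 748, 743 and 540 counts in C1, C3 and C3-3. In H1, H5 and H9 it had 1896, 1525 and 2244 counts. It rose from 11.6 ± 1.63 to 34.1 ± 7.57 CPM (log2 fold change 1.55, standard error 0.20, adjusted p = 0.00047). Shank1 stayed scarce, with 3, 7 and 1 counts in control and 16, 8 and 37 in Hdac1/2-deleted mice (log2 fold change 2.42, standard error 0.73, adjusted p = 0.0267). Its call was lost without C1, C3-3 or H9, with an adjusted p of up to 0.13. Shank1 also passed the filter on low counts through its Hdac1/2-deleted libraries.

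Levels of different genes were compared as mean CPM per kilobase of exon. In control IEC the order was Adra2a at 2.03, Grin2d at 1.89, Shank2 at 1.08, Chrnb1 at 0.869 and Chrm3 at 0.494 CPM per kilobase. Chrm4 ranked 13 and Shank3 ranked 27 of the 44 genes. In Hdac1/2-deleted IEC the order was Chrm4 at 27.7, Chrnb1 at 6.34, Shank2 at 3.16, Adra2a at 2.31 and Shank3 at 2.30 CPM per kilobase, and Grin2d, at 0.389, ranked 7. Some neighbours in these orders did not differ beyond the spread of the libraries. In control IEC the ranges of Adra2a (1.57 to 2.74 CPM per kilobase) and Grin2d (1.34 to 2.47) overlapped, as did those of Shank2 (0.944 to 1.24) and Chrnb1 (0.686 to 1.07). In Hdac1/2-deleted IEC, Chrm4 (23.8 to 32.8) lay above Chrnb1 (4.75 to 7.44) and Chrnb1 above Shank2 (2.38 to 3.73), while Shank2, Adra2a (1.06 to 4.26) and Shank3 (1.94 to 2.68) overlapped. The level of Chrm4 rests on its short gene model of 1440 exonic bases.

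**Figure D4:**
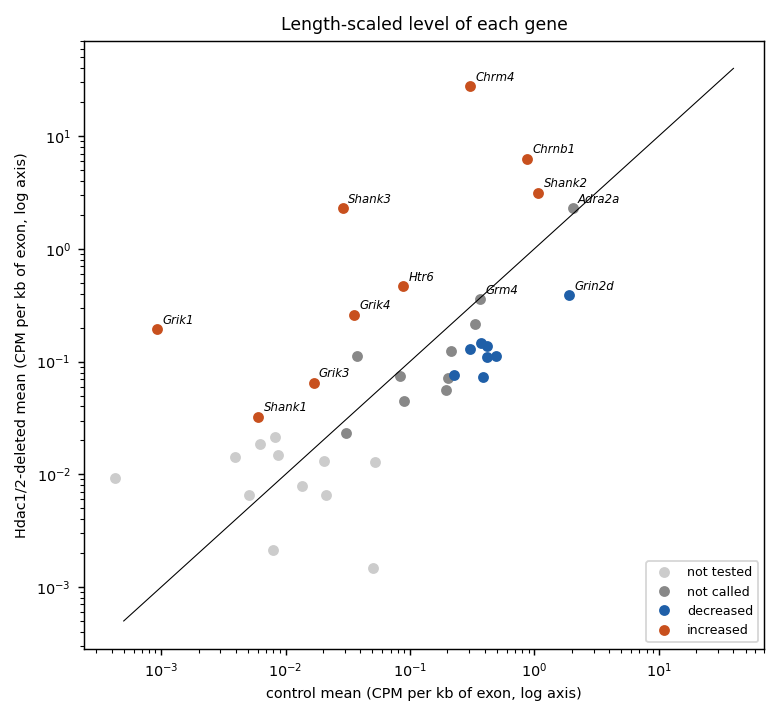
Mean expression per kilobase of exon (CPM per kb, log axes) in Hdac1/2-deleted against control IEC for 39 member genes with counts in both groups, coloured by call, with the line of equal levels. Chrm4, at 27.7 CPM per kb, lies highest, and Shank3 and Grik1 lie farthest above the line beside it.

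Genes that make, store, take up or break down transmitters were read from a list of 40, of which 23 were tested. This list and those of scaffold and G-protein genes below were chosen with earlier results of these data known. Their shares of called genes are therefore descriptive and are no independent test of these groups. Of these, 4 rose (17.4%, against 12.4% of all genes tested) and 5 fell (21.7%, against 12.7%), and the median log2 fold change was -0.85. Ache, acetylcholinesterase, which ends the action of acetylcholine, rose from 1.16, 0.792 and 0.659 CPM in C1, C3 and C3-3 to 23.1, 49.9 and 37.1 CPM in H1, H5 and H9 (log2 fold change 5.38, standard error 0.36, adjusted p = 2.08e-05). Bche, another cholinesterase of the list, went the other way, from 240 ± 5.07 to 128 ± 18.9 CPM (log2 fold change -0.91, adjusted p = 0.00143). That change was under the 2-fold limit, so Bche was not called, and it was named after its values were seen. Aldh5a1, which completes the breakdown of GABA to succinate, rose from 37.2 ± 4.15 to 107 ± 6.35 CPM (log2 fold change 1.53, adjusted p = 6.48e-05). Of the 5 that fell, 4 encode transporters. Among other tested transporters of the list, Slc6a12 rose (log2 fold change 1.91, adjusted p = 0.0225). Slc6a4, Slc18a1, Slc18a2 and Slc6a9 were not called (log2 fold changes -0.27, 0.22, -0.94 and 0.03). Slc6a12 and the uncalled transporters were named after their values were seen. Slc6a3, the dopamine transporter, fell from 9.63 ± 3.44 to 0.0829 ± 0.0726 CPM, with no count in H5 (log2 fold change -6.66, standard error 0.61, adjusted p = 9.02e-05). Slc1a1, an epithelial and neuronal transporter of glutamate, fell from 26.2 ± 7.82 to 1.52 ± 0.560 CPM (log2 fold change -4.13, adjusted p = 5.75e-05), and Slc1a3, a glutamate transporter of glia, from 2.88 ± 1.68 to 1.04 ± 0.450 CPM (log2 fold change -1.48, adjusted p = 0.0367).

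The scaffold, adhesion and receptor-associated list had 41 tested genes, of which 10 rose (24.4%, against 12.4% of all genes tested) and 4 fell (9.76%, against 12.7%), with a median log2 fold change of -0.16. Dlgap3, which binds Shank proteins to PSD-95, rose from 0.453, 0.180 and 0.188 CPM in C1, C3 and C3-3 to 6.21, 11.1 and 8.99 CPM in H1, H5 and H9 (log2 fold change 4.96, standard error 0.44, adjusted p = 5.89e-05). Homer3, of the family that links Shank proteins to metabotropic glutamate receptors, rose from 0.967 ± 0.159 to 8.16 ± 2.15 CPM (log2 fold change 3.07, adjusted p = 9.54e-05). Other genes of these families did not all rise. Homer2, at 58.6 ± 5.33 CPM in control and 52.6 ± 5.47 CPM in Hdac1/2-deleted mice, was not called (adjusted p = 0.400). Homer1 and Dlgap4 were not called either (log2 fold changes 0.13 and -0.45), while Dlgap1 rose (log2 fold change 1.33). Homer1, Homer2, Dlgap1 and Dlgap4 were named after their values were seen. Baiap2, an actin regulator that also binds Shank proteins, rose from 2.55 ± 0.526 to 13.8 ± 0.730 CPM (log2 fold change 2.43, adjusted p = 6.6e-05). Nlgn2, an adhesion protein of inhibitory synapses, rose from 1.19 to 1.40 CPM in control mice to 17.2 to 22.1 CPM in Hdac1/2-deleted mice (log2 fold change 3.93, adjusted p = 5.18e-06). Ric3, a chaperone that helps nicotinic receptors to assemble, fell from 2.35 ± 0.716 to 0.0856 ± 0.0878 CPM, again with no count in H5 (log2 fold change -4.59, standard error 0.69, adjusted p = 0.000937).

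In the list of G-protein coupling, 32 genes were tested, 7 rose (21.9%, against 12.4% of all genes tested) and 4 fell (12.5%, against 12.7%), and the median log2 fold change was 0.02. Of 9 adenylyl cyclases, which make cyclic AMP, 4 rose (Adcy1, Adcy3, Adcy4 and Adcy8), Adcy5 fell and 4 were not called. Adcy4 went from 0.564 ± 0.249 to 15.5 ± 3.53 CPM (log2 fold change 4.79, standard error 0.36, adjusted p = 2.77e-05), and Adcy3 and Adcy1 had log2 fold changes of 1.74 and 1.58 (adjusted p = 0.00695 and 0.007). Of 5 receptor kinases, Adrbk2 rose, Grk5 and Grk4 fell, and Adrbk1 and Grk6 were not called (log2 fold changes 0.18 and -0.08, adjusted p = 0.289 and 0.749). Adcy8, Adcy5, Grk4, Adrbk1 and Grk6 were named after their values were seen. Adrbk2 rose from 2.89 ± 0.619 to 11.7 ± 3.21 CPM and Grk5 fell from 10.3 ± 1.08 to 2.60 ± 0.204 CPM (log2 fold changes 2.02 and -1.98, adjusted p = 0.000578 and 0.000158).

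**Figure D5:**
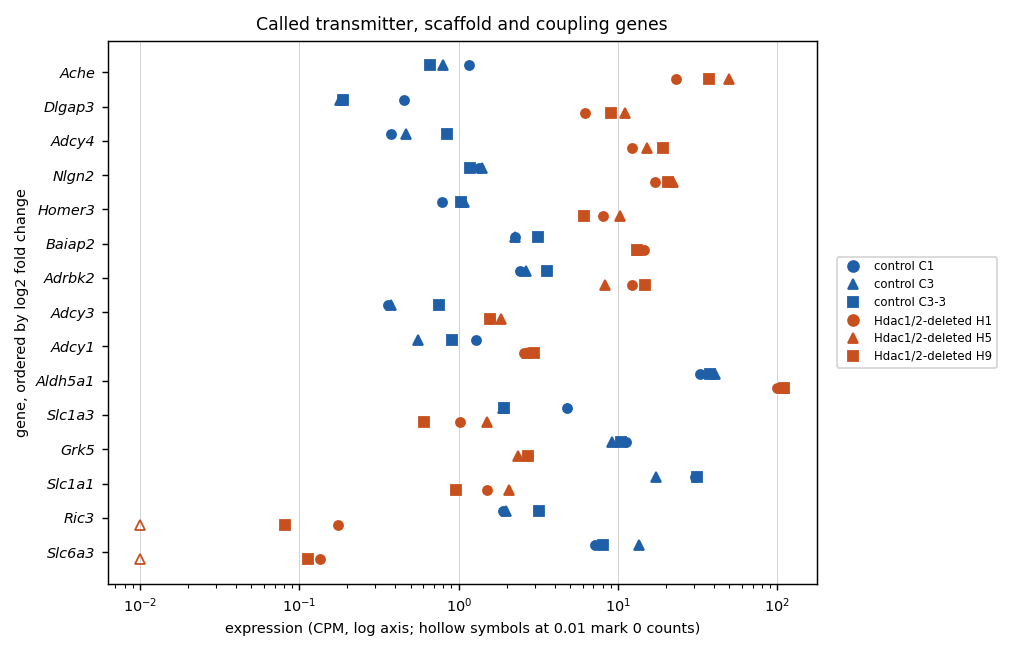
Expression in CPM (log axis) in each library of the 5 called genes of largest change, among those with a mean of at least 1 CPM, from each of the 3 lists, ordered by log2 fold change. For every gene shown the control libraries (blue) and the Hdac1/2-deleted libraries (orange) do not overlap. The genes were picked as called genes of largest change, so this separation follows largely from that choice. Groups do not overlap for 53.2% of all genes tested. Ache, at 23.1 to 49.9 CPM in the deleted mice, lies at the top.

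Because these genes are known from nerve, muscle and endocrine cells, the markers of those cells are given for the same libraries. Enteric neuron markers, of which 8 of 10 had a row, summed to 4.29 to 7.17 CPM in control and 10.3 to 13.0 CPM in Hdac1/2-deleted libraries. Ret, a receptor kinase of enteric neurons, made up the largest part of that sum. It was at 2.95 to 4.61 CPM in control and 5.53 to 8.301 CPM in Hdac1/2-deleted libraries. Its log2 fold change of 0.78 (adjusted p = 0.044) was under the 2-fold limit, so it was not called. One of the 8, the tubulin Tubb3, was called increased (log2 fold change 2.81), from 0.301 to 0.483 CPM to 1.73 to 4.37 CPM. Snap25, a defining synaptic gene, was at 0.602 to 0.876 CPM in control and 0.921 to 1.11 CPM in Hdac1/2-deleted libraries. Snap25, Prph and Syt1 had log2 fold changes of 0.39, 0.56 and 0.97, and Uchl1 of -0.80, none of them called. Elavl3 and Stmn2 were not tested. Enteric glia markers summed to 0.0941 to 0.664 and 0.536 to 0.796 CPM, and of the 4 with a row S100b alone was tested and was not called. Enteroendocrine markers summed to 406 to 460 CPM in control and 446 to 627 CPM in Hdac1/2-deleted libraries, with 1 of 7 increased. Tuft cell markers summed to 15.8 to 35.2 and 24.4 to 30.9 CPM, with 1 of 6 increased and 4 decreased. The increased gene, Trpm5, made up most of the sum in Hdac1/2-deleted libraries, at 22.4 to 28.7 CPM against 5.33 to 14.1 CPM in control. The decreased genes were Dclk1, Avil, Gfi1b and Pou2f3 (log2 fold changes -4.40, -2.70, -2.29 and -1.55). Leukocyte markers summed to 44.5 to 135 CPM in control and 28.3 to 53.7 CPM in Hdac1/2-deleted libraries, with 2 of 7 decreased. All 5 Paneth cell markers and 2 of 5 goblet cell markers were decreased, with sums of 3093 to 5006 against 150 to 230 CPM and 13874 to 15104 against 4885 to 11086 CPM. Of the stem cell markers, 2 of 4 were decreased. The part of each cell type in the receptor and Shank values was not tested.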

How the data were processed

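Poly(A) RNA of jejunal IEC was sequenced with a directional kit, in 1 library for each of 3 control and 3 Hdac1/2-deleted mice. The authors aligned the reads with STAR and deposited raw read counts per gene, without normalization. The study's methods name GRCm38, while the submitters' processing notes name mm9, STAR 2.4.0f1 and bcl2fastq 1.8.4. The counting program, its annotation and its use of strand are not given in the sources used here. The authors also deposited a score per library, the counts times 1 factor and rounded, and log2 fold changes, mean expression and p-values of their own comparison; none of these was used.

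Counts were tested with edgeR 4.0.16 (limma 3.58.1, R 4.3.3): filterByExpr, which left 15618 of 19616 genes, TMM (factors 0.892 to 1.14), a robust quasi-likelihood fit, prior count 0.125, no covariates and Benjamini-Hochberg adjustment over all genes tested. The steps were tested on simulated data. An exact permutation test of 3 against 3 mice cannot give p below 0.1. Alternatives were DESeq2 1.42.0, other scalings and filters, and leaving out each mouse. Positions and exon lengths came from GENCODE M21 (GRCm38) and upstream sequences from RefSeq (GRCm38.p6), which held windows for 28 of the 44 genes. Counting intervals and floors cover counting error only.

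Members and lists were chosen with earlier results of these data known. Named genes were Hdac1 and Hdac2, called members, members with a mean of at least 1 CPM, the Shank genes, the 5 called genes of largest change per list with a mean of at least 1 CPM, and markers that bear on a member. Untested members are named with their counts. Some members and markers that enter the counts are not reported here by name.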

Additional observations from a re-analysis of the deposited data

How the results depend on the processing

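Of 227 refits of the 18 called members, 200 kept the direction and the call, 27 kept the direction without the call, and none turned. Chrm1, Chrm3, Chrm4, Chrnb1, Chrnb2, Grik1, Grik3, Grik4, Grik5, Grin2d, Shank2 and Shank3 were called with every mouse left out in turn. With at least 10 counts required in every library, 4 members were increased, with Grik1, Grik3, Grik4, Htr6 and Shank1 among those not tested there. In the same setting 2 transmitter genes, 2 scaffold genes and 2 G-protein genes were decreased and 6 scaffold genes were increased. With each mouse left out, 8 to 10 members were increased and 5 to 8 decreased, the fewest without H1, and 2 to 3 scaffold genes were decreased, the fewest without C3 or H9. With C3-3 as the sole control, a setting added after seeing the data in which the lone library is assumed to vary like the others, 8 members were increased and 5 decreased, 2 scaffold genes were decreased and 3 G-protein genes increased. Chrna2, Gabre, Htr6, Shank1 and Grik5 lost their calls there (adjusted p = 0.265, 0.215, 0.13, 0.0514 and 0.0575). Without the 2-fold limit 3198 genes were increased and 3168 decreased, and the member counts were 10 and 8. Scaling by library totals moved the median log2 fold change of all genes from -0.0081 to 0.18 and gave 2463 increased and 1538 decreased genes, with 11 and 6 members. Chrna2 and Gabrd were not called under that scaling (adjusted p = 0.0659 and 0.0705), and Gabrd was not called without the robust option (adjusted p = 0.0512). Under scaling by library totals the log2 fold change of Hdac2 was 0.0069 and that of Grm4 was 0.16, both not called. With each mouse left out, Grm4 ranged from -0.39 to 1.05 and Adra2a from -0.60 to 0.53. The cause of these shifts was not tested beyond the genes dropped by the filter. No paired analysis was made because the sample labels name no pairs or litters. With no filter on low counts Gabrg3 was called, and DESeq2 called Gabrg3 and Chrm2 (adjusted p = 0.0192). Depth limits the 16 untested members, none of which had over 45 counts in a library.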

Other observations

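The genes next to the called members on the chromosome were read in the same fit, and those named here were chosen after their values were seen. Of 20 neighbours of increased members, 5 were increased, 12 were not called and 3 were not tested, where 12.4% of all genes tested were increased. Of 16 neighbours of decreased members, 1 was decreased, 2 were increased, 12 were not called and 1 was not tested, where 12.7% of all genes tested were decreased. Mdk, a secreted growth factor that lies 1116 bases from Chrm4, rose from 0.637 ± 0.0290 to 25.9 ± 6.89 CPM (log2 fold change 5.34, standard error 0.27). On the other side of Chrm4, Ambra1 was not called (log2 fold change -0.23). Fgf11 lies 124 bases from Chrnb1 and rose from 3.16 ± 1.63 to 19.6 ± 3.47 CPM (log2 fold change 2.63, standard error 0.36). Nbl1, 6713 bases from Htr6, rose from 8.51 ± 1.10 to 54.6 ± 14.6 CPM (log2 fold change 2.68). The other increased neighbours were Dhcr7 beside Shank2 (66.7 ± 22.3 to 134 ± 24.0 CPM) and C230037L18Rik beside Shank3 (log2 fold change 1.94). Grwd1, 938 bases from Grin2d, rose from 9.73 ± 2.87 to 28.6 ± 4.51 CPM while Grin2d fell (log2 fold change 1.55), and Prrg3 rose beside Gabre (log2 fold change 3.83). Ephx2 fell beside Chrna2 (log2 fold change -1.93). Whether neighbours share a cause was not tested.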
